A study of Mus musculus with 12 samples.

Results

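The genes described here are 10 genes of leptin and insulin signaling in the mouse hypothalamus: the leptin receptor gene *Lepr*, its signaling partners *Jak2* and *Stat3*, the feedback inhibitors *Socs3* and *Ptpn1*, the insulin receptor gene *Insr*, its substrates *Irs1* and *Irs2*, the transcription factor gene *Foxo1*, and *Cited1*, which encodes a transcriptional coregulator. They were chosen by symbol, and all 10 were found among the 16855 genes of the chow table and the 16744 genes of the HFD table. *Cited1* was placed with the others because its level differed between genotypes on the HFD in these same data, so its HFD difference is a description and not a test.

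RNA-Seq was performed on the hypothalamus of 12 male mice aged 8 weeks, with 3 mice in each of 4 groups. WT (Gpr75+/+) or *Gpr75*-/- mice either stayed on chow or received a high-fat diet (HFD) for 2 weeks, starting at 6 weeks of age. The *Gpr75*-/- mice are homozygous for a germline CRISPR/Cas9 allele made in C57BL/6J mice, in which the reading frame is lost near the start of the protein and translation stops early. The mRNA can still be made from this allele, so the level of *Gpr75* mRNA does not check the genotype labels. In counts per 1000000 reads (CPM), it was 16.7 CPM in WT mice and 24.6 CPM in *Gpr75*-/- mice on chow, and 19.9 and 18.4 CPM on the HFD.

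The values are the authors' summaries of each group, 1 value per gene and group, with no value of a single mouse. They are called means here, although whether they are means of log values, medians or another average is not given in the sources used here. They were deposited with 2 decimals on a compressed log scale, and were converted here to CPM and log2 CPM. A genotype difference is the log2 CPM of *Gpr75*-/- mice minus that of WT mice. The bracketed range after each difference covers the rounding and the 95% counting error of the reads, and not the variation between mice, so it is a lower limit on the error. PCR copies of 1 molecule also count as reads. Standard errors and p-values of the authors' own comparisons were not used here, so whether a difference is larger than the spread between mice was not tested and no p-values are given. After scaling, an average chow-fed mouse had a total of 18280500 counts and an average HFD-fed mouse 19420100.

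Leptin is released by fat cells and insulin by the pancreas, and both act on neurons of the hypothalamus to lower food intake. The leptin receptor has no enzyme activity of its own. It works through the bound kinase JAK2, which activates the transcription factor STAT3. STAT3 induces *Socs3*, whose product blocks the receptor complex, and the phosphatase PTP1B, encoded by *Ptpn1*, removes phosphate from JAK2 and from the insulin receptor. The insulin receptor phosphorylates IRS1 and IRS2, which lead through PI3K and AKT to the export of FOXO1 from the nucleus. In arcuate neurons, FOXO1 represses *Pomc* and raises *Agrp*. CITED1 does not bind DNA itself and acts with the coactivators CBP and p300.

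The *Socs3* and *Cited1* promoters are shown because *Socs3* is the classical STAT3 target of this pathway and *Cited1* had the largest difference of the 10 genes. Both are the 250 bases before a RefSeq transcription start, on the minus strand of build GRCm38.p6, at chr11:117969367-117969616 for *Socs3* and at chrX:102252182-102252431 for *Cited1*. Capitals mark the letters TTCNNNGAA, the core of a STAT binding site, which reads the same on both strands.
Socs3: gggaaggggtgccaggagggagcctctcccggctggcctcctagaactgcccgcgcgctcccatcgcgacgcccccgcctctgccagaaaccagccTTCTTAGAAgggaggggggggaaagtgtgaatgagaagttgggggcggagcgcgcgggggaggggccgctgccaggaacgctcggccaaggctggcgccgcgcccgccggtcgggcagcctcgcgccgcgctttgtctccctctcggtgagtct
Cited1: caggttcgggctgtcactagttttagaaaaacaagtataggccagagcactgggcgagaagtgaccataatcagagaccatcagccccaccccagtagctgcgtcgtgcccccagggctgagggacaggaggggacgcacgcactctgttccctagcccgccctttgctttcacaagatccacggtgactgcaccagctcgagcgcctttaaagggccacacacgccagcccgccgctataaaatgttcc
The match in *Socs3* starts at position -154 from the transcription start. The other starts listed for *Cited1* had no match, nor had those of *Lepr*, *Jak2*, *Stat3*, *Ptpn1*, *Irs1*, *Irs2* and *Foxo1*. Thus 1 of 12 promoters of the 9 genes matched in RefSeq held the letters, against 7.02% of the 32851 promoters in the same reference. *Insr* was not matched.

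Levels of the 10 genes spanned a wide range. On chow, *Irs2* had the highest mean of WT mice at 119 CPM, followed by *Stat3* at 85.2 and *Jak2* at 54.7 CPM. *Insr*, *Ptpn1* and *Foxo1* lay close together at 38.8, 34.4 and 33.4 CPM. *Cited1* (12.6 CPM) and *Irs1* (7.56 CPM) were lower, and *Lepr* (3.24 CPM) and *Socs3* (2.14 CPM) were the lowest. Per kilobase of exon, the order in WT mice was the same on both diets: *Irs2*, *Jak2*, *Stat3*, *Cited1*, *Ptpn1*, *Foxo1*, *Insr*, *Irs1*, *Socs3* and *Lepr*. *Cited1* has a short mRNA and moved up in this order, with a level of 7.20 CPM per kilobase in WT mice on chow. *Insr*, with the longest total exon length of the 10 genes, moved down to 2.82. *Lepr* was at 0.459 and *Irs2* at 18.8 CPM per kilobase. Without values of single mice, it could not be said which neighbors in this order differ beyond their spread. In bulk tissue, a low level in all cells and a high level in a few cells cannot be told apart, nor can fewer cells and less RNA per cell.

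**Figure D1:**
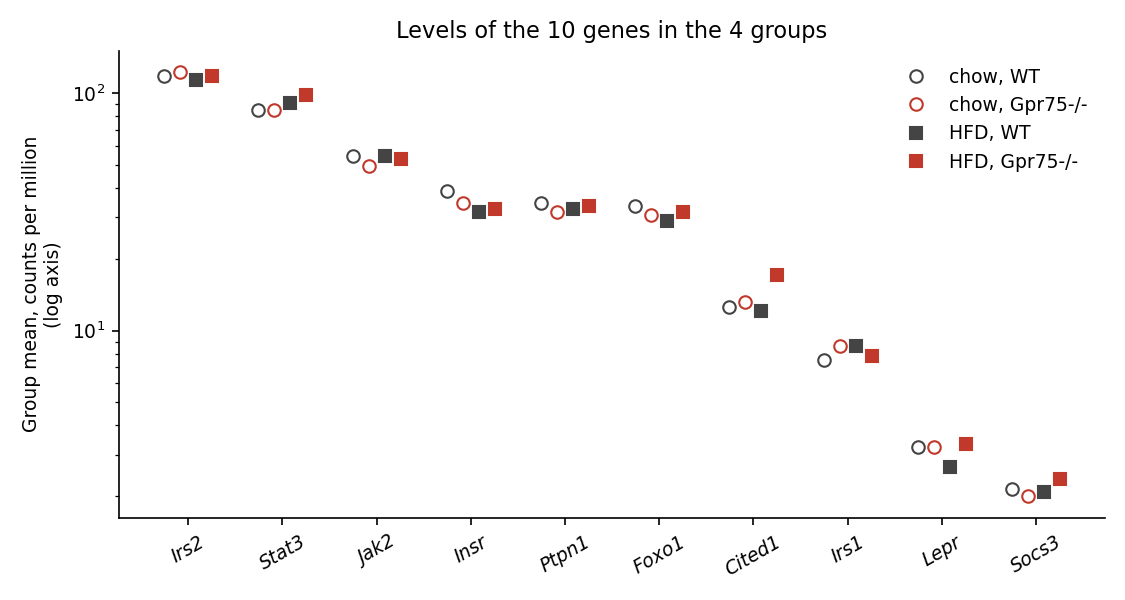
Group means of the 10 genes in CPM (log axis), open circles for chow and filled squares for the HFD, dark for WT and red for *Gpr75*-/- mice, 3 mice per group and no error shown. The red HFD square of *Cited1*, at 17.1 CPM, lies above its other 3 points at 12.1 to 13.2 CPM.

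*Cited1* (ENSMUSG00000051159, chromosome X, 101290987 to 101295787, build GRCm39) was higher in HFD-fed *Gpr75*-/- mice than in the other groups. Its mean was 12.6 CPM in WT and 13.2 CPM in *Gpr75*-/- mice on chow. On the HFD it was 12.1 CPM in WT and 17.1 CPM in *Gpr75*-/- mice. The chow and HFD levels come from tables that were normalized separately. The genotype difference was 0.50 in log2 CPM on the HFD (0.33 to 0.68), a 1.42-fold higher level, and 0.07 on chow (-0.12 to 0.25). The difference on the HFD minus that on chow was 0.44 (0.17 to 0.71), and the diets have separate WT mice. Among the 12509 genes with a mean of at least 100 normalized counts on the HFD, 6 were higher in *Gpr75*-/- mice by more than *Cited1*, and 14 were lower by more than that amount. At least a 1.2-fold higher mean in *Gpr75*-/- mice was seen for 174 of these genes (1.39%), and *Cited1* was chosen from this contrast. The arithmetic mean of *Cited1* over all 6 HFD-fed mice was 1.01 times the average of its group means, and over the 6 chow-fed mice 1.02 times.

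**Figure D2:**
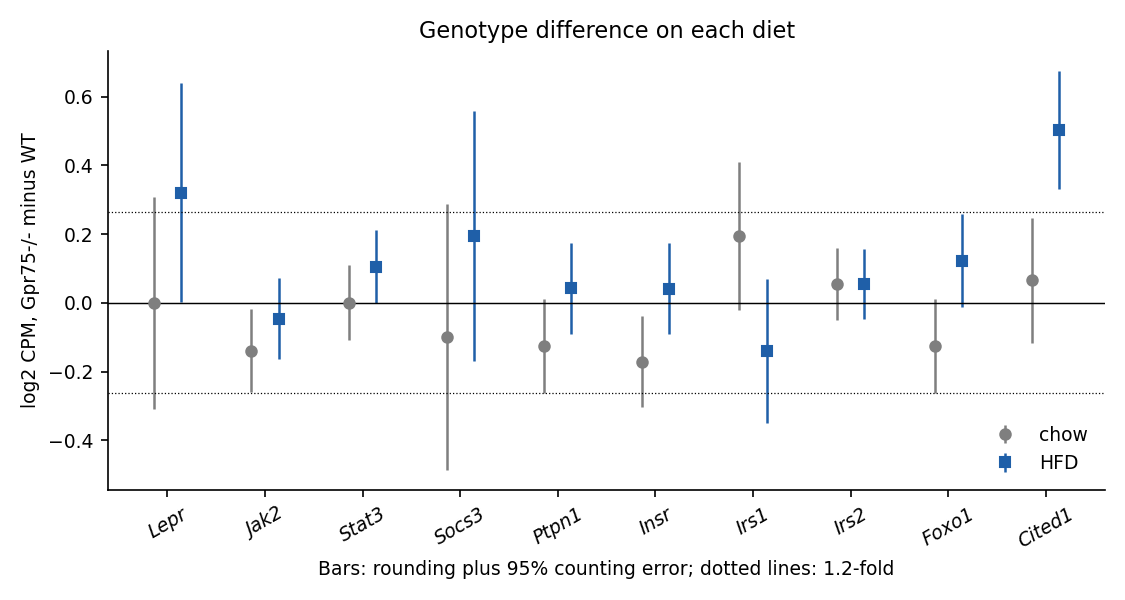
Genotype difference in log2 CPM (*Gpr75*-/- minus WT) for the 10 genes on chow (gray circles) and on the HFD (blue squares). Bars cover rounding and 95% counting error but not variation between mice, and dotted lines mark a 1.2-fold difference, which only *Cited1* and *Lepr* exceeded, both on the HFD (*Lepr* not at 1.25-fold).

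Markers of hypothalamic neurons moved with *Cited1*. The 8 markers (*Pomc*, *Agrp*, *Npy*, *Cartpt*, *Hcrt*, *Pmch*, *Sim1* and *Nr5a1*) were chosen with earlier results of these data known. All 8 had a higher mean in HFD-fed *Gpr75*-/- mice, with a median difference of 0.37. Of all 12509 genes with a mean of at least 100 on the HFD, 45.0% were higher and 33.6% lower, and *Agrp* was under that mean. The summed level of the 8 markers on the HFD was 449 CPM in WT and 571 CPM in *Gpr75*-/- mice. On chow 4 were higher and 4 lower, with sums of 481 and 491 CPM. The oligodendrocyte markers *Mbp*, *Mog* and *Mag*, genes of myelin proteins, were lower in *Gpr75*-/- mice on both diets. On chow *Mbp* was at 3838 CPM in WT and 3394 CPM in *Gpr75*-/- mice, *Mog* at 106 and 91.5 CPM and *Mag* at 216 and 176 CPM. On the HFD *Mbp* was at 4085 CPM in WT and 3608 CPM in *Gpr75*-/- mice, *Mog* at 123 and 98.4 CPM and *Mag* at 216 and 183 CPM. The part of these markers in the *Cited1* difference was not tested.

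*Lepr* (ENSMUSG00000057722, chromosome 4, 101574601 to 101672549) encodes the leptin receptor, whose long and short forms are counted together here. Its mean was 3.24 CPM in both genotypes on chow. On the HFD it was 2.66 CPM in WT and 3.32 CPM in *Gpr75*-/- mice. WT mice on the HFD thus had the lowest mean of the 4 groups, although chow and HFD levels were normalized separately. The difference on the HFD was 0.32 (0.00 to 0.64), with a lower bound of 0.00122 that lies next to 0, and on chow it was 0.00 (-0.31 to 0.31). Few reads lie behind these values, an average of 63.1 normalized counts per mouse on chow and 59.4 on the HFD. Genes with a mean of 30 to under 100 often show such differences: 468 of 3240 (14.4%) were at least 1.2-fold higher on the HFD. At this depth, the difference on the HFD minus that on chow, 0.32 (-0.13 to 0.78), was not detectable.

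*Jak2* (ENSMUSG00000024789, chromosome 19), the kinase bound to the leptin receptor, had a mean of 54.7 CPM in WT and 49.7 CPM in *Gpr75*-/- mice on chow, a difference of -0.14 (-0.26 to -0.02). On the HFD the means were 54.7 and 53.0 CPM, a difference of -0.05 (-0.16 to 0.07). *Stat3* (ENSMUSG00000004040, chromosome 11), the transcription factor downstream, was at 85.2 CPM in both genotypes on chow. On the HFD it was at 91.5 CPM in WT and 98.4 CPM in *Gpr75*-/- mice (0.10, -0.00135 to 0.21). With the deepest coverage after *Irs2*, *Stat3* could have shown a 1.2-fold difference above its counting error, and neither diet had one.

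*Socs3* (ENSMUSG00000053113, chromosome 11, 117856905 to 117860873), the feedback inhibitor whose promoter is shown above, had the lowest mean. It was at 2.14 CPM in WT and 2.00 CPM in *Gpr75*-/- mice on chow (-0.10, -0.49 to 0.29). On the HFD it was at 2.08 and 2.38 CPM (0.19, -0.17 to 0.56). With a mean of 38.4 and 43.9 normalized counts per mouse, a difference on either diet was not detectable at this depth. *Ptpn1* (ENSMUSG00000027540, chromosome 2), which encodes the phosphatase PTP1B, was at 34.4 CPM in WT and 31.5 CPM in *Gpr75*-/- mice on chow (-0.13, -0.26 to 0.01). On the HFD it was at 32.5 and 33.4 CPM (0.04, -0.09 to 0.18). Its range on the HFD leaves no room for a 1.2-fold difference from counting error alone.

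*Insr* (ENSMUSG00000005534, chromosome 8, 3172061 to 3329617) encodes the insulin receptor. Its mean on chow was 38.8 CPM in WT and 34.4 CPM in *Gpr75*-/- mice, a difference of -0.17 (-0.30 to -0.04) and the lowest of the 10 genes on that diet. On the HFD the means were 31.5 and 32.5 CPM (0.04, -0.09 to 0.18). Chow-fed WT mice thus stood above the other 3 groups, although chow and HFD levels were normalized separately.

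The insulin receptor substrates had different patterns. *Irs1* (ENSMUSG00000055980, chromosome 1) was at 7.56 CPM in WT and 8.65 CPM in *Gpr75*-/- mice on chow (0.19, -0.02 to 0.41), and at 8.65 and 7.85 CPM on the HFD (-0.14, -0.35 to 0.07). Its difference had opposite signs on the diets, by -0.33 for the HFD minus chow (-0.65 to -0.02). *Irs2* (ENSMUSG00000038894, chromosome 8), the more abundant substrate, was at 119 and 123 CPM on chow and at 114 and 119 CPM on the HFD. The *Irs2* difference was 0.05 on each diet (-0.05 to 0.16 on both), which rounding alone could bring to 0.

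*Foxo1* (ENSMUSG00000044167, chromosome 3), the transcription factor that insulin signaling restrains, was at 33.4 CPM in WT and 30.7 CPM in *Gpr75*-/- mice on chow (-0.12, -0.26 to 0.01). On the HFD the order was reversed, with 29.0 CPM in WT and 31.5 CPM in *Gpr75*-/- mice (0.12, -0.01 to 0.26). The difference on the HFD minus that on chow was 0.25 (0.03 to 0.47). For *Insr* the same quantity was 0.21, with a lower bound of 0.000663 and an upper bound of 0.43.

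Across the 10 genes, 3 had a higher mean in *Gpr75*-/- mice on chow, 5 a lower mean and 2 the same value, with a median difference of -0.05. None of the 8 genes with a mean of at least 100 was past 1.2-fold on chow, where 4.37% of all 12413 genes with that mean were past it in either direction. On the HFD, 8 genes were higher and 2 lower (*Jak2* and *Irs1*), with a median of 0.08. *Cited1* and *Lepr* were past 1.2-fold there. The fold was set after values were seen, and at 1.25-fold, which was looked at first, *Lepr* was not past it, with a ratio of 1.249 between its means. Of the 12509 genes with a mean of at least 100, 2.83% were past 1.2-fold in either direction. *Lepr* and *Socs3* were under that mean, so 1 of the 8 genes above it was past the fold, *Cited1*, which was chosen for this contrast. Without *Cited1*, 0 of 7 were. Of the 8 genes with a mean of at least 100, 6 were higher and 2 lower on the HFD, with a median of 0.05. Of all genes with that mean, 5623 were higher, 4197 lower and 2689 equal on the HFD, with a median of 0.00. The difference on the HFD exceeded that on chow for 6 of the 8 genes with a mean of at least 100 on both diets, and for 50.7% of all 12331 such genes. The values of *Irs2*, 1 of the other 2, were 0.05 on both diets. The range of the HFD difference minus the chow difference lay to 1 side of 0 for 4 of the 8, *Cited1*, *Insr*, *Foxo1* and *Irs1*, and for 9.29% of all such genes, before any variation between mice is counted. Between the diets, the genotype differences were at least 1.2-fold apart for *Cited1* and *Irs1* among the 8 genes, and for 7.01% of the 12331 genes. *Cited1* was chosen for its difference on the HFD, which enters each of these counts. Without it, the difference on the HFD exceeded that on chow for 5 of 7 genes, the range lay to 1 side of 0 for 3 of 7, with the lower bound of *Insr* next to 0, and 1 of 7 was past 1.2-fold.

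**Figure D3:**
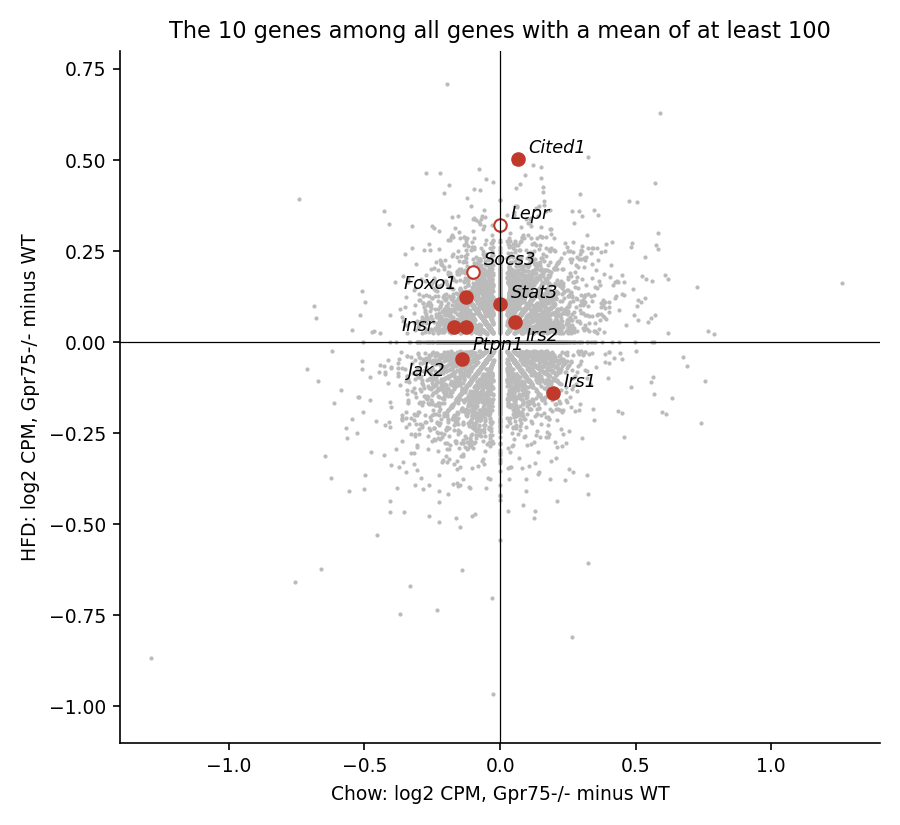
Genotype difference in log2 CPM on chow (horizontal) and on the HFD (vertical) for 12331 genes with a mean of at least 100 normalized counts on both diets (gray), with the 10 genes in red. Open circles are *Lepr* and *Socs3*, which have lower means. *Cited1* lies at 0.50 on the HFD axis, with some gray points above it, and at 0.07 on chow.

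The rest of the pathway was described by 6 lists with 86 genes, the 10 genes included. Of these, 84 were in the chow table and 83 in the HFD table, and 72 had a mean of at least 100 on each diet. On chow 23 of the 72 were higher, 39 lower and 10 equal, with a median of -0.05. Of all 12413 genes with that mean on chow, 5285 were higher, 4884 lower and 2244 equal, with a median of 0.00. On the HFD 30 of the 72 were higher, 33 lower and 9 equal, with a median of 0.00. Of all 12509 genes with that mean on the HFD, 5623 were higher, 4197 lower and 2689 equal, with a median of 0.00. Past 1.2-fold were 3 listed genes on chow (*Btg2*, *Pomc* and *Trpc5*, all lower) and 5 on the HFD (*Cited1*, *Npy* and *Pomc* higher, *Btg2* and *Foxo6* lower). *Cited1* was chosen for its difference on the HFD, which enters the count on that diet. Of all genes with that mean, 4.37% on chow and 2.83% on the HFD were past it in either direction. At 1.25-fold there were 0 listed genes on chow and 5 on the HFD.

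In the list for the leptin receptor and JAK-STAT signaling, none of 16 genes was past 1.2-fold on either diet. On chow 4 were higher and 9 lower (median -0.05), and on the HFD 8 were higher and 7 lower (median 0.02). *Socs2*, another SOCS inhibitor, had a difference of -0.21 on chow (-0.38 to -0.04) and of -0.10 on the HFD (-0.27 to 0.07). *Stat5b* was at 74.0 and 82.2 CPM on the HFD and *Sh2b2*, an adaptor gene, at 5.98 and 6.64 CPM. *Ptpn2*, which encodes a phosphatase related to PTP1B, was at 23.3 and 21.5 CPM on the HFD. *Sos1* was at 94.9 and 85.2 CPM on chow, and *Leprotl1* at 98.4 and 102 CPM.

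Among 11 receptors, substrates and adaptors of insulin and IGF signaling, 5 were higher and 5 lower on chow (median 0.00), and 6 higher and 5 lower on the HFD (median 0.04). *Grb14*, an adaptor that inhibits the insulin receptor, had the lowest difference on both diets, with 46.6 CPM in WT and 40.0 CPM in *Gpr75*-/- mice on each. Its difference was -0.22 on chow (-0.35 to -0.10) and -0.22 on the HFD (-0.35 to -0.10). *Irs4*, the substrate enriched in the hypothalamus, was at 79.4 and 85.2 CPM on chow and at 85.2 and 94.9 CPM on the HFD. *Shc1* was at 14.2 and 15.9 CPM and *Gab1* at 76.6 and 69.1 CPM on the HFD.

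Of 19 genes of PI3K, AKT and FOXO, 12 had a lower mean in *Gpr75*-/- mice on each diet and 4 a higher mean, with medians of -0.05. *Foxo6*, a FOXO gene of the brain, was the 1 gene past 1.2-fold, at 7.70 CPM in WT and 6.08 CPM in *Gpr75*-/- mice on the HFD (-0.34, -0.57 to -0.11). *Foxo3* was at 12.6 and 11.6 CPM there, and *Foxo1* and *Pik3r2* (42.5 and 45.2 CPM) were the genes with the highest differences of the list. On chow the ends of the list were *Pik3ca*, a catalytic PI3K subunit (85.2 and 74.0 CPM), and *Phlpp2* (16.7 and 14.8 CPM) at the low end, with *Inppl1* (15.2 and 16.3 CPM) and *Pik3r3* (58.4 and 62.4 CPM) at the high end.

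None of 13 genes of mTORC1 and energy sensing was past 1.2-fold on either diet. *Rptor*, which encodes the raptor subunit of mTORC1, came nearest, at 45.2 CPM in WT and 53.0 CPM in *Gpr75*-/- mice on the HFD (0.23, 0.11 to 0.35). *Stk11*, the gene of the kinase LKB1, was at 11.1 and 9.76 CPM on the HFD, and *Prkab1*, for an AMPK subunit, at 11.6 and 11.1 CPM. On chow *Prkaa1*, an AMPK catalytic subunit gene, was at 74.0 and 82.2 CPM, *Prkab1* at 13.5 and 12.1 CPM, and *Rps6kb1* at 66.8 and 62.4 CPM.

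Among the relatives and partners of *Cited1* with a mean of at least 100, no gene other than *Cited1* was past 1.2-fold. *Cited2*, a related coregulator gene, was at 69.1 CPM in both genotypes on the HFD (0.00, -0.11 to 0.11), *Crebbp* at 162 CPM in both, and *Ep300* at 79.4 and 76.6 CPM. On chow *Cited2* was at 69.1 and 71.5 CPM, *Crebbp* at 183 and 169 CPM, and *Ep300* at 82.2 and 79.4 CPM.

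Target and effector genes in hypothalamic neurons had the widest spread of the lists. On the HFD, 8 of 10 had a higher mean in *Gpr75*-/- mice and the median was 0.16. Of all 12509 genes with a mean of at least 100 on the HFD, 45.0% were higher and 33.6% lower, with a median of 0.00. Among the listed genes on chow, 3 were higher, 5 lower and 2 equal, with a median of -0.04. *Pomc*, the precursor of the satiety peptide alpha-MSH, had opposite signs on the diets. It was at 17.1 CPM in WT and 14.2 CPM in *Gpr75*-/- mice on chow (-0.28, -0.44 to -0.11), and at 20.4 and 28.2 CPM on the HFD (0.46, 0.32 to 0.61). *Npy*, the gene of the appetite-raising peptide neuropeptide Y, was at 16.3 and 22.7 CPM on the HFD (0.47, 0.32 to 0.63) and at 23.3 and 22.1 CPM on chow. *Agrp*, found in the same neurons as *Npy*, had a mean under 100 and had a difference of 0.58 on the HFD (0.24 to 0.93) and of 0.32 on chow (-0.01 to 0.65). *Btg2*, an early response gene, was lower on both diets, at 31.5 and 25.9 CPM on chow and at 22.7 and 17.1 CPM on the HFD. *Trpc5* was at 10.8 and 9.97 CPM on the HFD. *Trh* and *Pcsk1*, for thyrotropin-releasing hormone and a prohormone convertase, were the highest of the list on chow, at 69.1 and 79.4 CPM and at 76.6 and 85.2 CPM. The peptide genes for both raising (*Npy*, *Agrp*) and lowering (*Pomc*) appetite had higher means in *Gpr75*-/- mice on the HFD. *Pomc*, *Npy*, *Agrp* and *Cartpt* are also among the 8 neuron markers given above. The other 4 markers, which are not in this list, were higher on the HFD as well, with differences of 0.33 for *Hcrt*, 0.37 for *Pmch*, 0.38 for *Sim1* and 0.32 for *Nr5a1*. Their part in the differences of the listed genes was not tested. These lists were chosen with earlier results of these data known and were given no test.

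**Figure D4:**
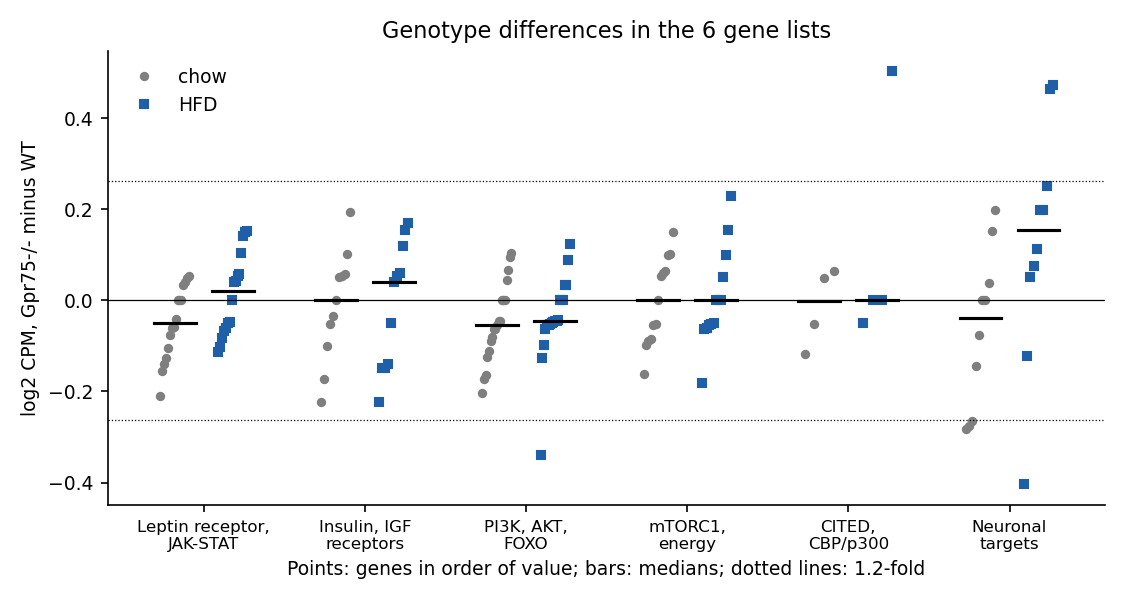
Genotype difference in log2 CPM for each gene with a mean of at least 100 in the 6 lists, gray circles for chow and blue squares for the HFD, with black bars for medians and dotted lines at 1.2-fold. *Cited1* at 0.50 stands apart from its list, and the neuronal targets have a median of 0.16 on the HFD and -0.04 on chow.

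The genes whose pair of genotype differences lay closest to that of *Cited1*, by distance in log2 units over the 2 diets among 12331 genes, were *C130089K02Rik* (distance 0.019), *Gpr50* (0.051), *Crhbp* (0.061), *Gm3636* (0.069) and *Otp* (0.080). *Gpr50*, an orphan receptor related to melatonin receptors, was at 10.6 CPM in WT and 11.3 CPM in *Gpr75*-/- mice on chow and at 9.18 and 12.6 CPM on the HFD. *Crhbp*, which encodes the binding protein of corticotropin-releasing hormone, was at 10.4 and 11.3 CPM on chow and at 10.8 and 15.2 CPM on the HFD. *Otp*, a homeobox gene of hypothalamic neurons, was at 7.28 and 9.76 CPM on the HFD and had a difference of 0.06 on chow. *C130089K02Rik* was at 4.40 and 6.19 CPM and *Gm3636* at 5.59 and 7.56 CPM on the HFD. The likeness rests on 2 differences per gene with no replicate error used.

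Group means of markers for other parts of the tissue also differed. The astrocyte markers *Aqp4*, *Gfap* and *Aldh1l1* had a median difference of 0.06 on both diets. The median of the microglia markers *Aif1*, *Cx3cr1* and *P2ry12* was -0.06 on chow and -0.09 on the HFD. For the endothelial markers *Cldn5*, *Pecam1* and *Flt1* it was -0.10 on both diets. For the tanycyte markers *Dio2* and *Col23a1* it was 0.11 on chow and -0.05 on the HFD. Choroid plexus markers summed to 14.3 CPM in WT and 33.6 CPM in *Gpr75*-/- mice on chow, and those of red blood cells to 165 and 267 CPM. On the HFD, with *Folr1* and *Kcne2* not in the table, these sums were 10.7 and 9.35 CPM, and 187 and 172 CPM. The remaining choroid plexus markers went opposite ways on the HFD, with a difference in log2 CPM of 0.16 for *Kl* (-0.05 to 0.38) and of -1.41 for *Ttr* (-1.80 to -1.03), which was at 3.60 CPM in WT and 1.35 CPM in *Gpr75*-/- mice. For the choroid plexus gene *Ttr*, the arithmetic mean over the chow-fed mice was 17.2 times the average of the group means, whereas the ratio was 0.991 to 1.07 for the 10 genes on chow and 0.997 to 1.02 on the HFD. The part of these markers in the values of the 10 genes was not tested.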

How the data were processed

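RNA was extracted from hypothalamus and libraries were prepared with a SMART-Seq mRNA kit. The submitters' processing notes name STAR, featureCounts, StringTie, DESeq2 and build GRCm39. Per the file headers, the authors gave each gene a signal that averages its counts, divided by size factors, over the 6 mice of a table. The authors also deposited a log2 value for each group with 2 decimals and no stated unit. It matched log2(1 + log2 CPM) computed from the mean counts within 0.01 for 96.0% of 12413 genes on chow and 96.8% of 12509 on the HFD, and was converted back on that basis. For *Ttr* on chow the mean over the 6 mice was 17.2 times the average of the 2 group values, which would be near 1 for arithmetic means. How the group values average the mice is not given in the sources used here. Group means below 1 CPM are listed at 0 (86 genes in the chow table, 65 in the other). The other columns hold the authors' fold changes, standard errors and p-values and were not used.

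Groups followed the sample titles. Tests on counts had been planned and could not be fitted to group means, so differences are described without a test. Reads per group for the counting error were estimated from the mean count, 3 mice and the ratio of the group means (Poisson, 95%). Main counts used genes with a mean of at least 100 and a 1.2-fold difference. A fold of 1.25 was looked at first, and 1.2 was taken after it was seen that *Lepr* on the HFD lay just under 1.25. Exon lengths came from GENCODE M21, matched by Ensembl identifier, and promoters from RefSeq (GRCm38.p6). Members, lists and markers were chosen with earlier results of these data known. Of these, 1 marker of oligodendrocytes is not reported here. The genes named are the 10 members, the 2 highest and 2 lowest of each list on each diet, and the 5 nearest to *Cited1*. The rule did not say whether the highest and lowest were per list and per diet, and this reading was settled after values were seen. The cell type markers, *Agrp* and *Ttr* among them, and *Gpr75* were named outside this rule. The conversion was tested on simulated data without variation between mice, which does not test the width of the ranges. Python 3.11.15, numpy 2.4.6, pandas 2.3.3, scipy 1.17.1 and matplotlib 3.10.9 were used.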

Additional observations from a re-analysis of the deposited data

How the results depend on the processing

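The number of genes past the fold depended on the filter and the fold. With no filter on low counts, 1945 genes on chow, 1464 on the HFD and 2591 for the difference between the diets were past 1.2-fold, against 542, 354 and 865 with a mean of at least 100. At 1.25-fold, the fold looked at first, 280, 179 and 461 were, and at 1.5-fold 34, 15 and 47. All 3 folds were chosen after seeing the data. *Lepr* on the HFD was past 1.2-fold and not past 1.25-fold, and *Cited1* on the HFD was past both and not past 1.5-fold. Of the listed pathway genes, 8 on chow and 8 on the HFD were past 1.2-fold with no filter, 0 and 5 at 1.25-fold, and 0 and 0 at 1.5-fold. Centring on the mean difference, run for the counts on each diet, moved neither by over 1.5 times. Size factors in place of group means, run for the median level of the 10 genes on each diet, did not move it by over 1.5 times. Rounding alone leaves the sign of the difference open for 3 genes on chow (*Lepr* and *Stat3*, with a difference of 0, and *Irs2*) and 4 on the HFD (*Jak2*, *Ptpn1*, *Insr* and *Irs2*). No paired analysis was possible because the group means carry no replicate numbers. For the same reason, leaving out each mouse and other normalizations of the counts were not run. Depth limits *Lepr* and *Socs3* most, and variation between mice enters none of the ranges.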
